A study of Homo sapiens with 2 samples.

Results

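The genes of 3 families of splicing factors were examined for RNA contacts of SNRPA1: the hnRNP and PTB genes, the SR and SR-like genes, and the genes for proteins of the U2 particle. They are a fixed list of 56 protein-coding genes, of the 20056 in the RefSeq gene table (GRCh38.p14), with 23, 13 and 20 members respectively. SNRPA1 is itself one of the 56. The measurement was irCLIP: RNA is crosslinked to the proteins that touch it, a chosen protein is precipitated, and the RNA fragments that come with it are sequenced. Here the antibody was against the endogenous SNRPA1. Both libraries, 2 biological replicates that form 1 group, came from MDA-231-LM2 cells, a lung-metastatic subline of MDA-MB-231 human breast cancer cells, with no treatment named in the labels.

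The U2 small nuclear ribonucleoprotein pairs with the branch site of an intron. SNRPA1 and SNRPB2 bind the U2 snRNA, the SF3A and SF3B complexes hold the branch site, and U2AF recruits the particle by reading the polypyrimidine tract and the intron's last bases. SR proteins mostly promote and hnRNP proteins often repress the use of nearby splice sites. Many genes of both families control their own level through alternatively spliced exons in their own transcripts.

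The deposited peaks are in 2 lists, neither of which separates the replicates, so no spread between replicates and no test could be computed. The height list gives each of 1373 distinct intervals a height in tags (3 to 1255, median 4) and an Entrez gene identifier. The list made with the peak caller CLIPper gives each of 7651 distinct intervals a number of reads (3 to 2507, median 5) and an Ensembl gene identifier. Library totals are not in these lists, so depth is unknown. Intervals given with tags and reads are exact 95% Poisson intervals and cover counting error only. A control immunoprecipitate and the RNA levels of the genes were not analysed here.

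Of the 56 splicing factor genes, 9 held a peak in the height list, 1 peak each. They were HNRNPH1, HNRNPH3, HNRNPK, HNRNPUL1 and PTBP2 among the hnRNP and PTB genes (5 of 23), SCAF11 among the SR and SR-like genes (1 of 13), and SF3B3, DDX42 and U2SURP among the U2 genes (3 of 20). SNRPA1 had no peak of its own in this list. The share of the 56 with a peak was 16.1%, against 6.02% of all protein-coding genes. That is a description of these pooled libraries, for genes that were chosen with earlier results of these data known. The heights were low, between 3 and 7 tags with a median of 4 tags, the median of the whole list. Heights from 3 to 7 tags made up 84.7% of all its intervals. The heights of the 9 peaks summed to 40 tags, which was 0.333% of the 11999 obtained by summing the heights of the whole list.

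**Figure D1:**
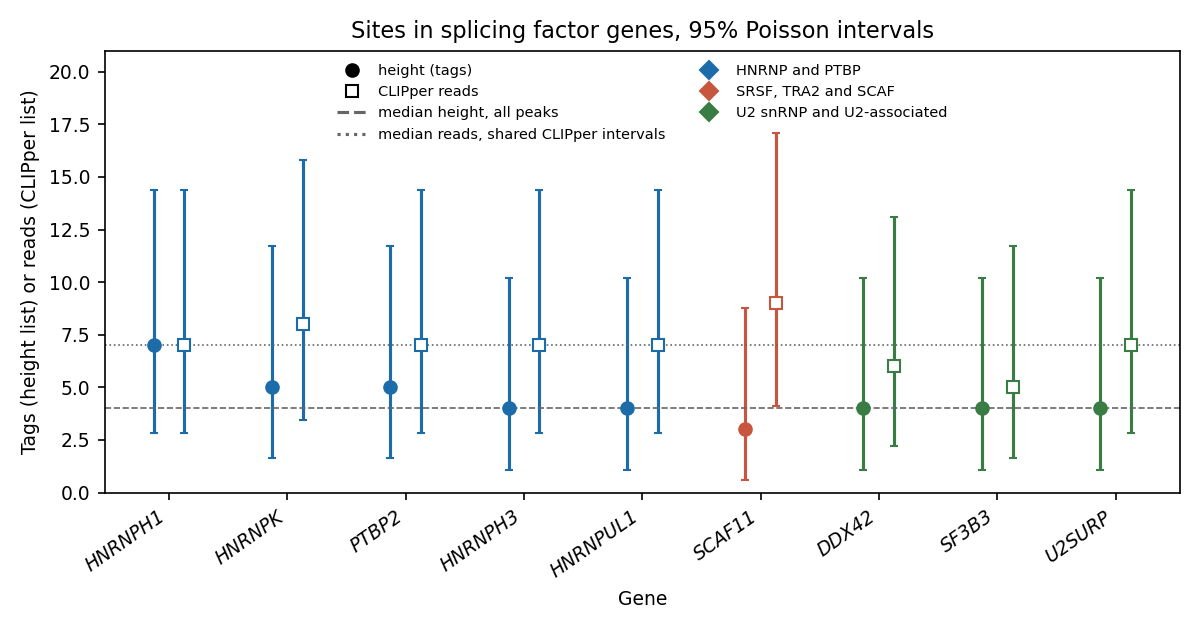
Height in tags (filled circles) and CLIPper reads (open squares) at the 9 sites in splicing factor genes, with exact 95% Poisson intervals and colours for the 3 families. The dashed line is the median height of all peaks (4 tags) and the dotted line the median of CLIPper intervals that overlap a peak (7 reads); the Poisson intervals of the 9 sites overlap one another throughout.

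The tallest of these peaks was in an hnRNP gene, although the counting intervals of the 9 heights all overlap. HNRNPH1 (Entrez 3187) encodes hnRNP H1, which binds runs of G and acts on exon choice. Its peak was 7 tags high (95% interval 2.81 to 14.4), at hg19 chromosome 5, 179045503 to 179045536, minus strand. A height of 7 tags or more was reached by 19.5% of the list, and the deposited P was 3.36e-08. HNRNPH3 (Entrez 3189), a relative of HNRNPH1 with fewer RNA-binding domains, had 4 tags (1.09 to 10.2) at chromosome 10, 70094157 to 70094189, plus strand. Its P of 0.00593 was the second highest among the 9. The other genes of this subgroup, HNRNPH2 and HNRNPF, were listed with no peak.

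HNRNPK (Entrez 3190), whose protein binds runs of C, had 5 tags (1.62 to 11.7) on the minus strand of chromosome 9, 86584851 to 86584884. In the RefSeq table HNRNPK contains the microRNA gene MIR7-1. Whether the peak lies near that gene was not analysed here, because the table and the peaks use different builds. HNRNPUL1 (Entrez 11100), which encodes a nuclear protein related to the scaffold protein hnRNP U, had 4 tags (1.09 to 10.2) on the plus strand of chromosome 19, 41800365 to 41800397. Neither HNRNPU nor HNRNPUL2 was listed with a peak.

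PTBP2 (Entrez 58155), the form of polypyrimidine tract-binding protein best known from neurons, had 5 tags (1.62 to 11.7) on the plus strand of chromosome 1, 97265953 to 97265983. Its deposited P of 1.08e-08 was the lowest of the 9, although its height was below that of HNRNPH1. The widely expressed PTBP1 and the third paralogue PTBP3 had no peak, and PTBP3 is the longest of the 56 genes (162 kb). The remaining genes of the family without a peak were HNRNPA0, HNRNPA1, HNRNPA2B1, HNRNPA3, HNRNPAB, HNRNPC, HNRNPD, HNRNPDL, HNRNPL, HNRNPM, HNRNPR and SYNCRIP (hnRNP Q).

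None of the 10 SRSF genes examined held a peak in the height list (SRSF1 to SRSF7, SRSF9, SRSF10 and SRSF11), and neither did TRA2A or TRA2B. The exception in this family was SCAF11 (Entrez 9169), which encodes an SR-related protein that interacts with splicing factors. Its peak had 3 tags (0.619 to 8.77), the lowest height the list holds, at chromosome 12, 46324061 to 46324095, minus strand. The deposited P was 0.0153, the highest of the 9. SCAF11 is also the longest gene of its family at 72.9 kb, and the 10 SRSF genes had a median length of 9.66 kb. The SRSF genes range from 3.3 to 47.4 kb. Over all protein-coding genes, the share with a peak was 0.596% up to 10 kb, 1.68% from 10 to 20 kb, 2.22% from 20 to 40 kb and 6.37% from 40 to 80 kb. No peak in 10 SRSF genes is therefore near the background.

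In the U2 family the 3 peaks were of equal height, 4 tags each (1.09 to 10.2). SF3B3 (Entrez 23450) encodes SF3b130, a large subunit of the SF3B complex, and its peak lay on the plus strand of chromosome 16, 70596409 to 70596441. DDX42 (Entrez 11325) is a DEAD-box helicase gene whose product associates with SF3B. The DDX42 peak was at chromosome 17, 61879627 to 61879660, plus strand. U2SURP (Entrez 23350) encodes SR140, which binds CHERP and RBM17 in a U2-associated group. That peak was at chromosome 3, 142765110 to 142765142, plus strand. Deposited P values were 5.38e-05 in SF3B3, 9.16e-05 in DDX42 and 0.000205 in U2SURP.

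Most other U2 genes had no peak in the height list. SNRPA1 and SNRPB2, the 3 SF3A genes, U2AF1 and U2AF2 had 0 peaks, as did 4 of the 5 SF3B genes (SF3B1, SF3B2, SF3B4 and SF3B5). SNRPA1, SNRPB2, the SF3A genes and the U2AF genes are between 10 and 40 kb long, and of all protein-coding genes from 10 to 20 kb and from 20 to 40 kb only 1.68% and 2.22% held a peak, so few or no peaks in them is near the background. Among the 8 U2-associated genes DDX42 and U2SURP held peaks, while DDX46, PUF60, RBM17, SUGP1, CHERP and DHX15 did not. A gene without a peak may hold contacts below the 3 tags at which the list starts. Its transcript is therefore not shown to lack SNRPA1. In the height list the sites of this family were thus 3, of 4 tags each, in 20 genes, and none was assigned to SNRPA1. The CLIPper list was not searched for the other 17 genes.

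On its own strand each of the 9 peaks shared at least 1 nt with a CLIPper interval, as did 97.2% of the height list. Both lists describe the same libraries, so this is no replication. The CLIPper interval wholly enclosed the peak at all 9 sites, extending 1 to 3 nt before it and 2 to 3 nt after it, which was so for 80.2% of shared peaks. The midpoint of the CLIPper summit lay at most 1 nt from the midpoint of the peak. The sites were narrow, 31 to 35 nt in the height list and 34 to 39 nt in the CLIPper list.

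Reads at these sites ranged from 5 to 9, with a median of 7, which equals the median of the 1590 CLIPper intervals that overlap a peak. SCAF11 had the most, 9 reads (4.12 to 17.1), and HNRNPK had 8 reads (3.45 to 15.8). HNRNPH1, HNRNPH3, HNRNPUL1, PTBP2 and U2SURP had 7 reads each (2.81 to 14.4). DDX42 had 6 reads (2.20 to 13.1) and SF3B3 5 reads (1.62 to 11.7). All of these counting intervals overlap, so the order of the 9 genes by reads is not resolved.

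Tags and reads ranked the sites differently. SCAF11 was lowest by tags and highest by reads, with 3 reads per tag, a ratio that 11.2% of shared peaks reached. HNRNPH1 was highest by tags and had 1 read per tag, which 99.3% reached. The other 7 lay between 1.25 in SF3B3 and 1.75 in HNRNPH3, HNRNPUL1 and U2SURP, around the median of 1.67 over all shared peaks. For this median and these shares, a peak that overlapped several CLIPper intervals was given its largest ratio. Each of the 9 peaks overlapped only 1. Across the 9 genes, which share both libraries, Spearman's rho between tags and reads was -0.03. Over so narrow a range of counts this is only a description. The deposited p of the CLIPper list was between 1.16e-07 in SCAF11 and 0.000606 in SF3B3.

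**Figure D2:**
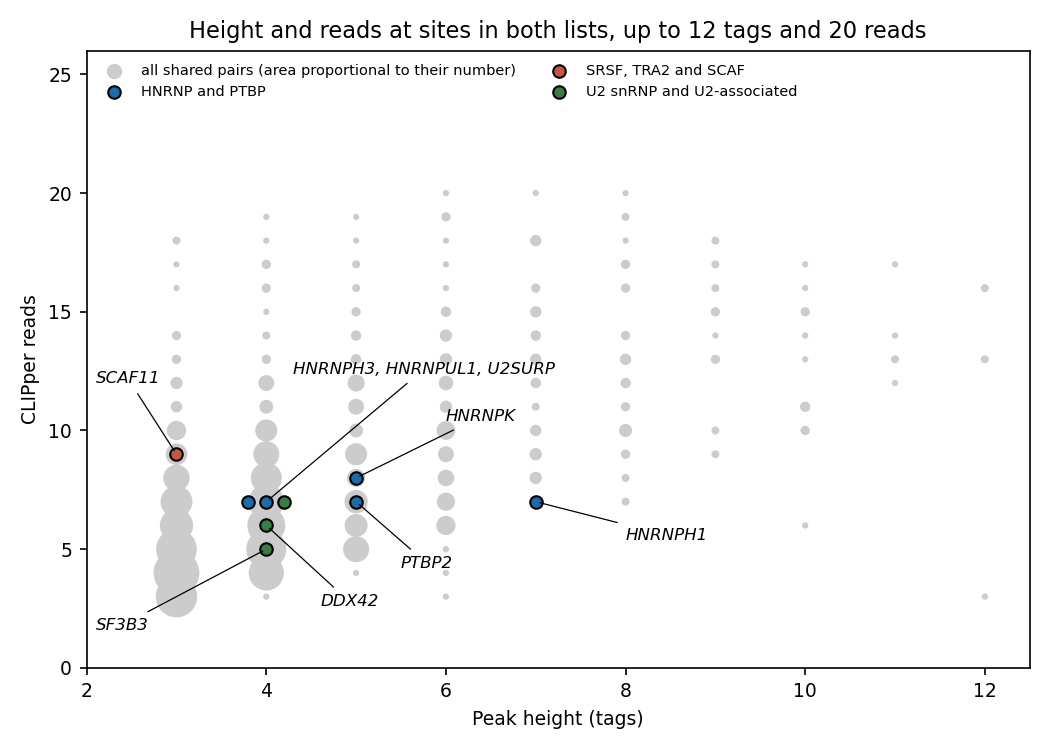
CLIPper reads against peak height in tags for the 9 splicing factor sites (coloured, with gene names; the 3 genes at 4 tags and 7 reads are set side by side) and for all pairs of overlapping intervals with up to 12 tags and 20 reads (grey, 1324 of 1590 pairs). SCAF11 lies at the left edge with 9 reads, and HNRNPH1 at 7 tags has the lowest ratio of the 9.

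The CLIPper list could be searched only in part for these genes. The tables used here pair no Ensembl identifier with a symbol, so a CLIPper gene has a name only where it shares a site with a peak of 1 named gene, as 1231 of 4848 identifiers (25.4%) do. That the 9 genes with a peak have a CLIPper interval therefore follows largely from how they were named. CLIPper intervals of the other 47 genes, SNRPA1 included, were not analysed here. Each of the 9 identifiers had exactly 1 CLIPper interval in the whole list, so none of these genes had another CLIPper site. A single interval was the rule for 63.2% of all identifiers, and for 47.0% of the 1231 named ones.

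Genes with a peak were longer than those without, in this family as in the whole list. The median length was 45.5 kb for the 9 genes with a peak and 16.0 kb for the other 47, and over all protein-coding genes 130.0 kb with and 21.9 kb without a peak. Among the 20 hnRNP genes, PTB genes left out, the medians were close, 16.6 kb for the 4 with a peak and 14.5 kb for the 16 without. In the U2 family they were 53.9 kb for the 3 with a peak and 19.7 kb for the 17 without. HNRNPH3 (11.5 kb) and HNRNPK (12.5 kb) were the shortest with a peak, and 15 of the 56 genes were shorter than both. Among all protein-coding genes within the range of lengths of the 56, 4.03% held a peak.

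By band of length, 0 of 12 splicing factor genes up to 10 kb held a peak, against 0.596% of all protein-coding genes of that length. From 10 to 20 kb the count was 2 of 18 (HNRNPH3 and HNRNPK) against 1.68%. From 20 to 40 kb it was 1 of 12 (HNRNPH1) against 2.22%. The band from 40 to 80 kb held the most, 5 of 12 (HNRNPUL1, DDX42, SF3B3, U2SURP and SCAF11) against 6.37%. From 80 to 200 kb it was 1 of 2 (PTBP2) against 15.7%. The absence of peaks in short genes such as SF3B5, SRSF2 and HNRNPA1 thus stands beside a background share near 0.

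**Figure D3:**
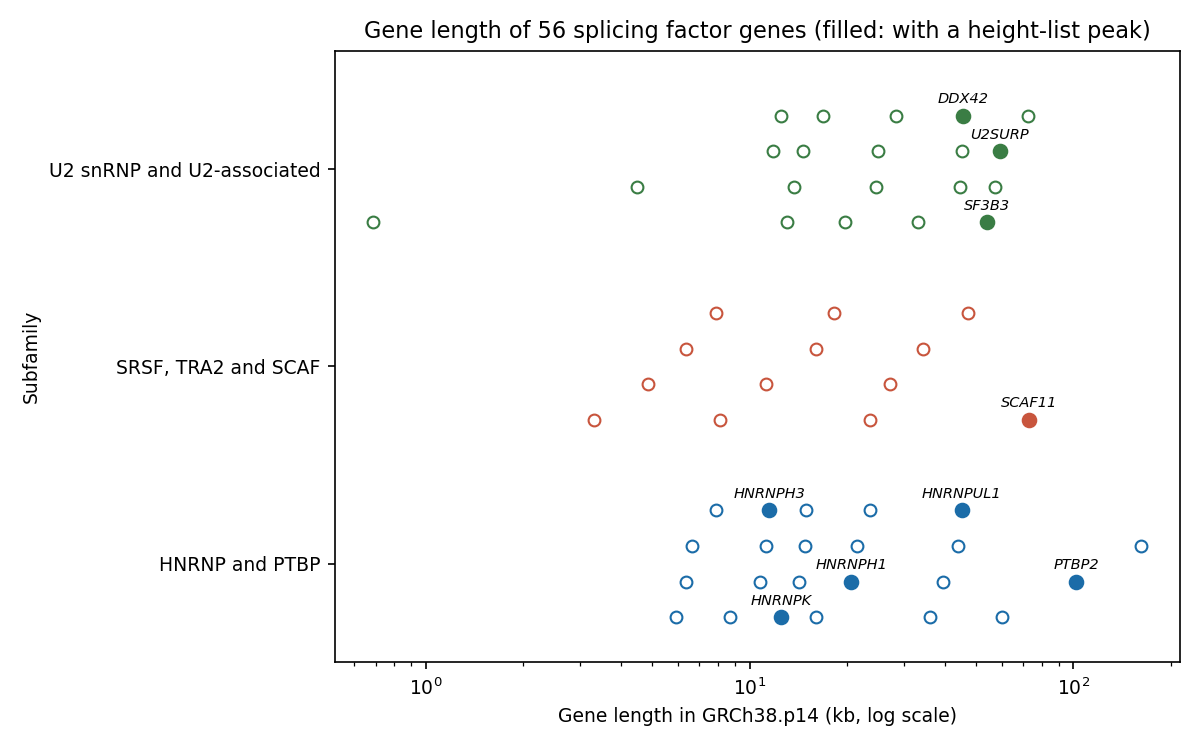
Gene length in kb (log axis) of the 56 splicing factor genes in their 3 families, filled where the gene holds a height-list peak; vertical position within a family only separates the points. All 9 filled genes are at least 11.5 kb long, and SCAF11 is the longest of its family.

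**Figure D4:**
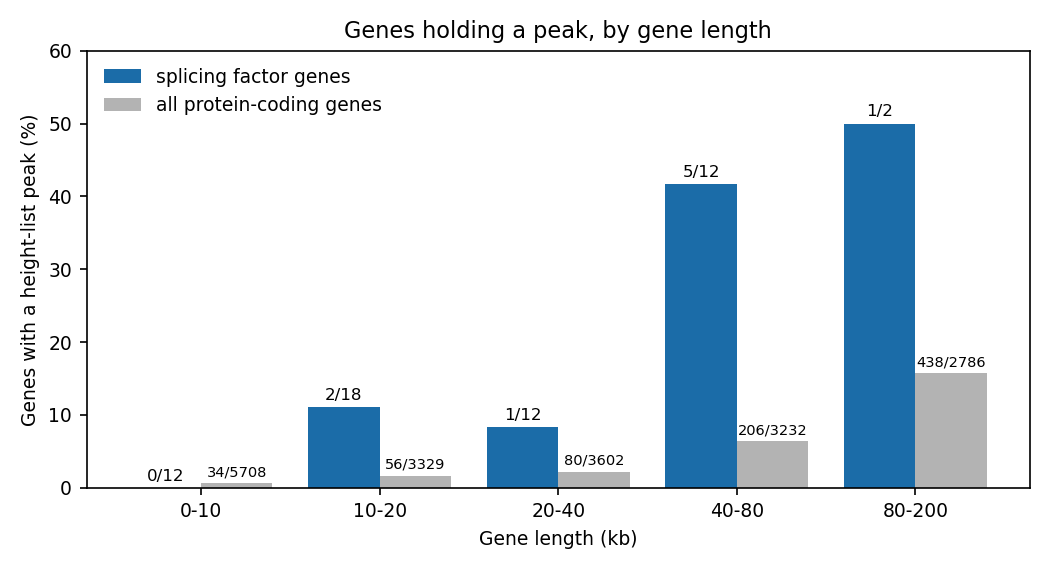
Percentage of genes that hold a height-list peak in 5 bands of gene length, for the splicing factor genes (blue) and all protein-coding genes (grey), with the counts above the bars. The share of splicing factor genes is above the grey bar in the 4 bands from 10 kb upward, on counts of 2, 1, 5 and 1 genes.

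Per length of gene, the 56 splicing factor genes held 5.72 peaks per Mb (95% Poisson interval 2.61 to 10.9), and all protein-coding genes held 1.05 (0.994 to 1.11). The hnRNP and PTB genes had 7.18 per Mb (2.33 to 16.8), the U2 genes 5.03 (1.04 to 14.7) and the SR and SR-like genes 3.56 (0.0901 to 19.8). The 3 intervals overlap widely, so these counts do not separate the families. The intervals count peaks only and take no account of differences in RNA level. The 56 genes were chosen with earlier results of these data known, so their difference from all protein-coding genes is a description and no test.

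Most of these peaks were near the lower limits of the list. With at least 5 tags required, HNRNPH1, HNRNPK and PTBP2 were left, 3 of 56 genes (5.36%) against 2.40% of all protein-coding genes. With a deposited P under 1e-05, HNRNPH1 and PTBP2 were left, 2 of 56 (3.57%) against 2.93%. No U2 gene and no SR or SR-like gene passed either limit. The other 6 of the 9 genes rested on a peak of 3 or 4 tags.

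Of 102 other genes of the splicing machinery, in 5 lists, 11 held a peak, and 9 of these were in the list of tissue-regulated regulators. None of 18 other U2 and Sm protein genes and none of 16 genes of the U5 and U4/U6 particles held one. The U1 list had 1 of 12, TIAL1, with 9 tags in a gene of 23.5 kb. TIAL1 encodes an RNA-binding protein that aids U1 at weak 5′ splice sites. The list of Prp19 complex and catalytic genes had 1 of 20, CDC5L, a core component of that complex, with 4 tags. Over these 4 lists 2 of 66 genes (3.03%) held a peak, against 6.02% of all protein-coding genes, with a median gene length of 21.8 kb. Per length of gene these 4 lists had 0.814 peaks per Mb (0.0985 to 2.94), an interval that includes the 1.05 of all protein-coding genes.

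Tissue-regulated splicing regulators, the fifth list, held a peak in 9 of 36 genes (25.0%). The share was 6.02% over all protein-coding genes and 15.7% over those from 80 to 200 kb. Their median length was 110.0 kb, and that of the 9 with a peak 222 kb. The tallest peaks were 10 tags in RBFOX1, a regulator of neuronal and muscle exons, 7 tags in KHDRBS3, a STAR-family RNA-binding protein gene, 6 tags in MBNL1, the muscleblind protein gene, and 6 tags in RBM20, a regulator of exons in heart muscle. This list had 1.33 peaks per Mb (0.664 to 2.38), against 5.72 in the 56 splicing factor genes and 1.05 in all protein-coding genes.

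Several of these genes have pseudogenes. Counted by name alone in the RefSeq table, 30 of the 56 have at least 1 pseudogene: 4 of the 9 with a peak and 26 of the 47 without. HNRNPA1 had the most, 75 pseudogenes, and HNRNPA3 had 17, and neither gene held a peak. HNRNPK had 5, HNRNPH1 had 3, and HNRNPH3 and U2SURP 1 each, and the remaining 5 genes with a peak had none. How alike these copies are to the sequence under the peaks, and their part in either group, was not tested. The share of all protein-coding genes with a pseudogene named for them was not computed.

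U2 snRNA is the RNA that SNRPA1 binds in the particle. By name alone (symbols that start with RNU2-), no copy of its gene lies inside any of the 56 splicing factor genes in GRCh38.p14. A copy under another name would be missed, and what the small RNA gene LOC124900524 in SF3B1 encodes was not analysed here. Of the 9 with a peak, 3 contain another small RNA gene or pseudogene, as do 8 of the 47 without. Besides MIR7-1 in HNRNPK these are SNORD111 and SNORD111B in SF3B3 and the 7SL pseudogene RN7SL34P in HNRNPUL1. The position of the peaks relative to these genes, and whether the peaks lie in exons, introns or UTRs, were not analysed here, since no annotation of build hg19 was used. The share of all protein-coding genes that contain a small RNA gene was not computed either.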

How the data were processed

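SNRPA1 irCLIP was performed on 2 replicates of MDA-231-LM2 cells. Per the submitters' processing notes, cutadapt 1.10, BWA 0.7 and genome build hg19 were used. In the CLIPper list the authors deposited a p-value per interval, with reads and Ensembl identifier in its name. In the height list the deposited signal of an interval is its height in tags, beside Entrez identifier and P. The second file's name marks pooled, unique tags, and which caller made it is not stated there. These values were used as deposited.

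Repeated intervals were counted once, which left 1373 of 1454 and 7651 of 8053. Coordinates are 1-based hg19. Entrez identifiers were matched to the RefSeq table (GRCh38.p14), which named 1444 of 1454 entries (99.3%). It gave names, lengths and contained genes only, the latter on either strand. All 56 symbols matched. The genes examined and the 5 other lists were chosen with earlier results of these data known. Every gene with a site was named, and up to 4 genes per other list, by height and then P. The bands of length were set after the data were seen. Alternatives covered the P or p limit, minimum height or reads, overlap rule, joining and background. The code was tested on simulated data. Python 3.11.15, numpy 2.4.6, pandas 2.3.3 and scipy 1.17.1 were used.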

Additional observations from a re-analysis of the deposited data

How the results depend on the processing

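Of 26 alternatives 15 left counts and ratios within 1.5 times and medians within their counting interval, and 11 did not, all 11 by asking for stronger sites. Among the 15, the median height rose from 4 to 6 tags with P under 1e-05. The number of splicing factor genes with a peak fell from 9 to 2 with P under 1e-05 and to 3 with at least 5 tags. By family these limits left 2 and 3 hnRNP and PTB genes of 5, 0 and 0 SR and SR-like genes of 1, and 0 and 0 U2 genes of 3. Of the 9 genes with a CLIPper interval, 0 had at least 10 reads. Over the whole CLIPper list 20.5% of intervals had 9 reads or more, and the share with at least 10 was not computed. In the 5 other lists, 11 genes with a peak became 7 with P under 1e-05 and 6 with at least 5 tags, limits added for these lists after the data were seen. Counts of 9 were unchanged when intervals of several genes were left out, when CLIPper intervals were joined within 50 nt or limited to p under 0.001, and under both other rules of overlap. Several of the 15 could not change a result. Each of the 9 genes had 1 peak and 1 CLIPper interval, so nothing could be joined. The tallest or strongest interval of each gene was likewise its only one. The CLIPper interval enclosed the peak at all 9 sites, so both other overlap rules were met in advance. The ratio of the share of splicing factor genes with a peak to the background share was 2.67, and 3.98 with the background limited to genes no shorter and no longer than the 56, which does not match their lengths. Depth is unknown. No paired analysis was possible because there is 1 group only. No replicate could be left out, since neither list separates them.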

Other observations

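The 9 splicing factor sites were spread over 9 different chromosomes, 6 on the plus and 3 on the minus strand. The nearest other height-list peak was between 9.36 kb and 1800.0 kb away, with a median of 700.0 kb, and the nearest other CLIPper interval between 9.36 kb and 574 kb, with a median of 96.6 kb. The closest neighbour was that of HNRNPH3, a peak of 4 tags on the opposite strand assigned to RUFY2, a gene that encodes a protein of endosomal traffic. The next closest was 87.2 kb from HNRNPH1, a peak of 4 tags in CANX, the calnexin gene, also on the opposite strand.

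Equal heights carried unequal deposited P values. The 5 splicing factor genes with 4 tags had P from 5.38e-05 in SF3B3 to 0.00593 in HNRNPH3, where the 388 intervals of 4 tags in the whole list ran from 4.18e-08 to 0.0413 with a median of 3.03e-05. HNRNPK and PTBP2, with 5 tags each, had P of 3.32e-05 and 1.08e-08. Over the 9 genes, which share both libraries, Spearman's rho between gene length and P was -0.02. In the CLIPper list, by contrast, the 5 sites with 7 reads had nearly equal p, from 1.05e-05 to 1.25e-05.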
